A study of Mus musculus with 20 samples.

Results

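The genes that take fatty acids into muscle, release them from stored fat and burn them were followed in mouse gastrocnemius, a calf muscle. The set was a list of 45 genes, kept where the deposited table held 10 or more counts in 5 or more of its 20 columns. All 45 met that rule, out of 53311 rows in the table, and all 45 were among the 13560 genes tested. Of the 45, 42 reached 10 counts in all 20 libraries, and Angptl4 did so in 13, Etfb in 10 and Acot1 in 7.

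RNA of 20 samples was sequenced, 5 in each of 4 groups. Per the labels every sample came from the genotype Cre+:iMSBmal1 fl/fl, so the controls also carried Cre and the floxed Bmal1 alleles. They had been given either vehicle or the treatment labelled iMSBmal1KO. Muscle was taken at zeitgeber time 13, which counts the hours from lights on, without exercise or 1 h after a 30 min treadmill run. The groups are called vehicle at rest, vehicle after exercise, knockout-labelled at rest and knockout-labelled after exercise. The gene Arntl encodes BMAL1, a DNA-binding activator in the molecular clock. The labels name neither the promoter that drives Cre nor the inducing agent, and give no age. The description label of the exercised knockout samples mentions training, but by title and treatment they ran acutely, which is how they were analysed. No label states that replicates are separate animals, so p-values measure the spread between these samples.

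As background, a muscle fibre takes up fatty acids from the blood after lipoprotein lipase has freed them, or frees them from its own lipid droplets with a chain of lipases. An acyl-CoA synthetase activates each fatty acid, the carnitine shuttle carries it into the mitochondrion, and a cycle of dehydrogenase, hydratase, dehydrogenase and thiolase steps shortens it while electrons pass through the electron transfer flavoprotein. Malonyl-CoA blocks the carnitine shuttle. The nuclear receptors PPAR-alpha and PPAR-delta bind fatty acids and control many of these genes, which slow and oxidative fibres express at higher levels than fast glycolytic fibres.

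Total counts ran from 8045154 to 11269812 per library. Levels are counts per 1e6 (CPM) scaled by edgeR's trimmed mean of M-values. Arntl lay between 7.90 and 21.4 CPM and was not lower in the knockout-labelled libraries, at rest (exact two-sided permutation p = 0.159, adjusted 0.923 over 24 tests) or after exercise (p = 0.468, adjusted 0.923). A gene-level count includes exons outside a deletion, so the Arntl level says little about the deletion. Dbp, another gene of the molecular clock, had 519 to 767 counts in vehicle libraries and 78 to 167 in knockout-labelled libraries, without overlap. Every genotype direction below rests on the labels. The libraries differed widely in slow fibre RNA: the summed level of 9 slow fibre markers such as Myh7 and Tnni1 ran from 51.0 to 4122 CPM. It lay under 150 CPM in 5 libraries, vehicle at rest replicate 5, vehicle after exercise replicates 2 and 4, and knockout-labelled after exercise replicates 2 and 4. Myh2, the myosin of fast oxidative fibres, ran from 43.3 to 5101 CPM and followed the slow fibre score, the mean log2 CPM of the 9 markers (r = 0.94 over 20 libraries). That score did not differ beyond the spread between the groups (exact two-sided permutation p from 0.167 to 0.825, adjusted p of at least 0.923). The smallest p this design allows is 0.00794. Of the fat cell markers Adipoq had 0 to 92 counts, Plin1 0 to 65, Cidec 1 to 128 and Cfd 6 to 538. Fabp4, which endothelium also expresses, had 431 to 937. The summed levels of 8 fat cell, 4 blood and 3 nerve markers were each highest in vehicle after exercise replicate 4, at 187, 356 and 85.7 CPM. The part of blood and nerve RNA in the levels below was not tested. Ucp1 of brown fat had 0 counts in every library.

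Levels per kb were divided by the union of all exons of a gene in GENCODE M21, which can be longer than 1 transcript. By that measure the most abundant of the genes was Fabp3, the fatty acid binding protein of heart and muscle, at 377 ± 255 CPM per kb in vehicle at rest (SD, n = 5). Before division by length Lpl was highest, with a mean of 638 CPM over 20 libraries. Its exon union of 10.5 kb put it at 60.3 ± 44.0 CPM per kb in vehicle at rest. Acadvl and Acadl, which start the oxidation of very long and long chains, stood at 99.2 ± 28.7 and 98.4 ± 46.0 CPM per kb. Crat, the carnitine acetyltransferase, stood at 91.8 ± 3.81 CPM per kb. The ranges of mean ± SD of these 3 neighbours in the order overlapped, and genes were not tested against each other. At the other end were Acot1, a cytosolic thioesterase, at 0.199 ± 0.164 CPM per kb, and Angptl4, the secreted inhibitor of lipoprotein lipase, at 0.328 ± 0.249 CPM per kb. Cpt1b, the muscle form of carnitine palmitoyltransferase, stood at 0.972 ± 0.351 CPM per kb and Cpt1a, the form best known from liver, at 0.957 ± 0.191 CPM per kb. Their ranges of mean ± SD overlapped too. In GENCODE M21, 81.4% of the exon bases of Cpt1b are shared with the same-strand gene Gm44502, which has no row in the table. Of the exon bases of Etfb, a subunit of the electron transfer flavoprotein at 1.04 ± 0.338 CPM per kb, 53.0% are shared with Gm45233, which had 0 counts. Whether shared reads were dropped in the counting was not tested, so the levels of Cpt1b and Etfb are uncertain. Acadvl shares 42.9% of its exon bases with Dvl2 on the opposite strand, and the strand setting of the counting is not given in the sources used here. Acot1 and Acot2 are close paralogs whose reads may be split.

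The levels of most of the genes moved with the slow fibre score of the library. Pearson's r between log2 CPM and the slow fibre score was 0.5 or more for 32 of 45 genes, against 12.5% of all genes tested, and the median r was 0.67 against -0.01 over all genes. After group means were subtracted, 34 genes had r of 0.5 or more. With the 2 libraries farthest from the median score left out, vehicle after exercise replicate 2 and knockout-labelled after exercise replicate 4, 27 of the 35 genes with an adjusted p under 0.05 had an r of at least 0.5 in size. In whole muscle, fewer slow fibres and less RNA per slow fibre cannot be told apart. Because Myh2 moved with the score, whether the genes followed slow or fast oxidative fibres was not tested.

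The steepest was Lpl, the lipoprotein lipase that frees fatty acids from circulating triglyceride. It stood at 1060.0, 1128, 620.0, 204 and 146 CPM in vehicle at rest and at 844, 179, 1260.0, 309 and 507 CPM in vehicle after exercise. It stood at 665, 1264, 542, 324 and 845 CPM in resting knockout-labelled muscle and at 726, 135, 852, 127 and 1013 CPM after exercise. The 5 libraries poorest in slow fibre RNA had 127 to 309 CPM, and all 4 groups overlapped. Its r with the score was 0.91 and Spearman's rho 0.89 (permutation p = 1e-05 for each, the smallest that 100000 permutations can give, adjusted 3e-05 and 3.46e-05 over 45 genes), with r = 0.89 without the 2 farthest libraries. Acaa2, the thiolase of the last step of the cycle (r = 0.90), Cd36, the fatty acid translocase of the cell surface (r = 0.89), and Fabp3 (r = 0.86) behaved likewise, and so did Ppara, which encodes PPAR-alpha (r = 0.82). With log2 CPM of Myh2 in place of the score, r was higher for each of these genes. It was 0.94 for Lpl, 0.94 for Acaa2, 0.95 for Cd36, 0.90 for Fabp3 and 0.91 for Ppara. For Etfb it was lower, 0.39 against 0.57 with the score. The 4 acyl-CoA dehydrogenases, the 5 hydratase, dehydrogenase and thiolase genes, the 4 auxiliary enzymes of unsaturated fatty acids, the 3 electron transfer genes and the 3 thioesterases all had r of 0.5 or more. Acsl3 (r = -0.60) and Acsl4 (r = -0.69), acyl-CoA synthetases found in many cell types, went the other way. Cpt1a did so too (r = -0.48, adjusted permutation p = 0.0409, Spearman's rho -0.44, adjusted permutation p = 0.0743). Crat hardly moved with the score (r = 0.01) and had the smallest ratio of highest to lowest level, 1.25, of the genes detected in every library (all but Acot1), from 465 to 582 CPM.

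**Figure D1:**
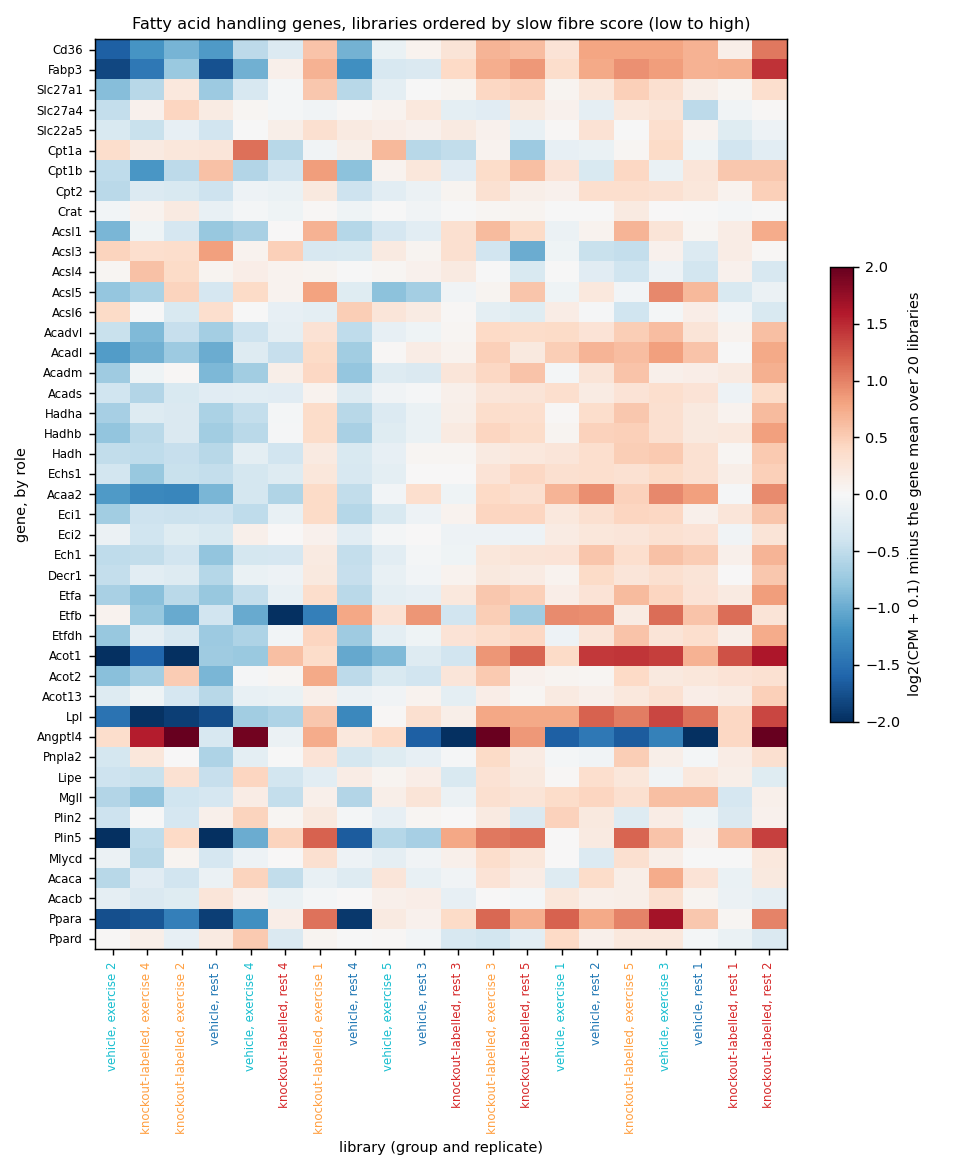
Level of each of the 45 genes (rows, by role) in each of the 20 libraries (columns, from the lowest to the highest slow fibre score), as log2(CPM + 0.1) minus the mean of the gene, with colours limited at -2 and 2. The columns at the left, poor in slow fibre RNA, are blue for most genes, whatever their group, while Crat stays pale throughout.

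**Figure D2:**
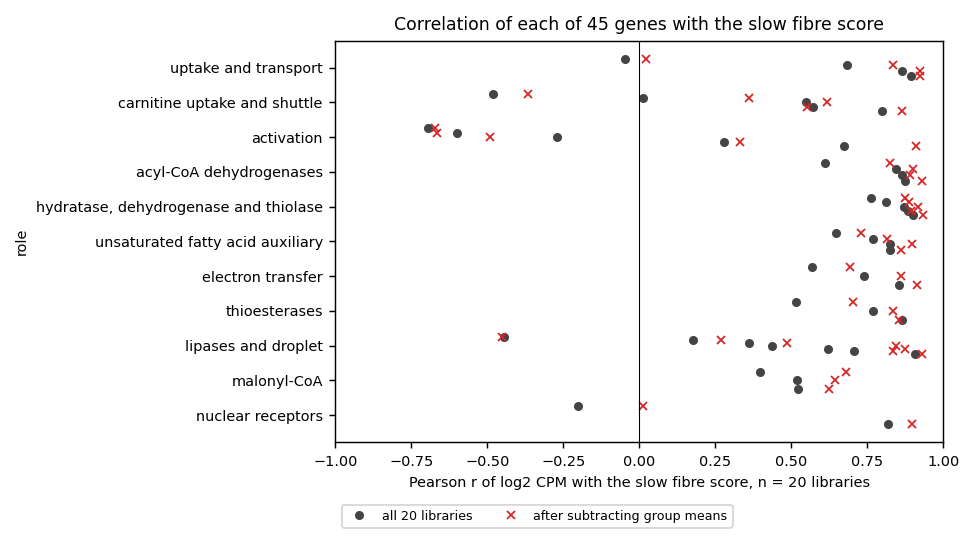
Pearson's r of log2 CPM with the slow fibre score over 20 libraries, 1 dot for each gene by role, and 1 cross for the same after subtraction of group means. Dots of the oxidation cycle lie above 0.5, and the synthetases of the activation row reach from -0.69 to 0.67.

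The main question was how these genes differ between the treatment labelled iMSBmal1KO and vehicle. That comparison is called the genotype difference here, although all samples share the same genotype by label. An effect of the inducing agent and an effect of the loss of muscle Bmal1 cannot be told apart in this design. Averaged over rest and exercise, 10 knockout-labelled against 10 vehicle libraries, 8 of 45 genes differed (17.8%, edgeR adjusted p under 0.05 over all genes tested), against 11% of all genes tested. Plin5, Acsl1, Acadm and Pnpla2 rose, 4 genes against 5.18% of all genes that were higher, and Acsl6, Cpt1a, Ppard and Acacb fell, 4 genes against 5.78% that were lower. At an unadjusted p under 0.05 there were 15 of the 45, against 3282 of all genes tested (24.2%). The median log2 fold change was 0.09, against 0.01 over all genes tested, and 32 of the 45 values were positive.

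The largest rise was in Plin5, the droplet coat protein that ties lipid droplets to mitochondria in oxidative tissue. It lies at chr17:56111601-56117596 on the minus strand (GENCODE M21, build GRCm38, as for all gene positions here, which need not be the build of the counts). Plin5 stood at 19.7, 21.0, 11.7, 5.78 and 3.89 CPM in vehicle at rest and at 18.7, 3.64, 27.7, 9.28 and 12.5 CPM in vehicle after exercise. In knockout-labelled muscle it stood at 28.6, 48.1, 31.7, 25.3 and 39.8 CPM at rest and at 42.4, 24.4, 38.7, 12.96 and 41.9 CPM after exercise. At rest every knockout-labelled library was above every vehicle library, and after exercise the groups overlapped. The averaged log2 fold change was 1.32 (SE 0.35, edgeR adjusted p = 0.0194), a 2.49-fold difference, and it was called in each of the 20 fits that left out 1 library.

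Pnpla2 encodes ATGL, the lipase that takes the first fatty acid from stored triglyceride (chr7:141455198-141460743, plus strand). It stood at 216, 212, 198, 174 and 146 CPM in vehicle at rest and at 217, 174, 242, 194 and 188 CPM in vehicle after exercise. It stood at 247, 278, 218, 221 and 249 CPM in resting knockout-labelled muscle and at 268, 223, 291, 260.5 and 312 CPM after exercise. The 2 groups at rest did not overlap, and after exercise the vehicle library of 242 CPM lay above the lowest knockout-labelled library. The averaged log2 fold change was 0.39 (SE 0.08, edgeR adjusted p = 0.00246). The next lipases of the chain showed no call: Lipe, hormone-sensitive lipase, had -0.08 (SE 0.12) and Mgll, monoglyceride lipase, -0.22 (SE 0.18). Lpl was at 0.04 (SE 0.50), and Angptl4 at 1.31 (SE 0.58, adjusted p = 0.175) on counts that ran from 0.332 to 10.4 CPM. Plin2, the ubiquitous droplet coat protein, had -0.14 (SE 0.10).

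Among the 5 synthetases that activate fatty acids, the mitochondrial muscle form rose and another fell. Acsl1 (chr8:46471037-46536051, plus strand) had a lowest, median and highest level of 159, 249 and 358 CPM with vehicle and of 238, 382 and 501 CPM in knockout-labelled muscle, over 10 libraries each. The ranges overlapped, and the log2 fold change was 0.63 (SE 0.17, edgeR adjusted p = 0.0191). Acsl6, a synthetase best known from brain and also expressed in muscle (chr11:54303798-54364756, plus strand), stood at 88.3, 79.2, 89.9, 114 and 102 CPM in vehicle at rest. It stood at 89.5, 105, 77.8, 80.0 and 95.1 CPM in vehicle after exercise. Knockout-labelled libraries had 77.1, 64.7, 81.2, 71.9 and 67.7 CPM at rest and 70.2, 65.3, 70.5, 80.2 and 60.9 CPM after exercise. The vehicle and knockout-labelled ranges overlapped only between 77.8 and 81.2 CPM, and the log2 fold change was -0.37 (SE 0.07, edgeR adjusted p = 0.00129), the smallest p among the 45. Gm12224, on the opposite strand, shares 202 exon bases with Acsl6, 2.04% of its exons, and its level fell too (log2 fold change -0.53, SE 0.07, adjusted p = 9.73e-06). It ran from 54.8 to 77.3 CPM in vehicle and from 39.7 to 50.03 CPM in knockout-labelled libraries. Without a stated strand setting, reads of the shared bases cannot be told apart. Acsl3 (-0.09, SE 0.19), Acsl4 (0.09, SE 0.10) and Acsl5 (0.09, SE 0.23) were not called.

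At the carnitine shuttle Cpt1a, which makes acylcarnitine at the outer mitochondrial membrane (chr19:3322334-3385733, plus strand), fell by 0.42 on the log2 scale (SE 0.13, edgeR adjusted p = 0.0401). Its mean was 9.16 ± 3.24 CPM over the vehicle and 6.83 ± 1.54 CPM over the knockout-labelled libraries (SD, n = 10 each), with overlapping ranges. That call was lost in 10 of 20 fits that left out 1 library (up to an adjusted p of 0.0843, without vehicle after exercise replicate 4) and without the 5 libraries poorest in slow fibre RNA (0.181). Crat was the least changed of the shuttle genes by size (0.08, SE 0.05), and Cpt2 of the inner membrane (0.16, SE 0.13), Cpt1b (0.26, SE 0.23) and the carnitine carrier Slc22a5 (-0.08, SE 0.11) were not called either. Acacb, the acetyl-CoA carboxylase whose malonyl-CoA restrains the shuttle (chr5:114146535-114250761, plus strand), fell by 0.22 (SE 0.07, edgeR adjusted p = 0.0384). It stood at 404, 415, 424, 390.0 and 459 CPM in vehicle at rest while knockout-labelled libraries had 358, 341, 345, 355 and 377 CPM, and these ranges did not overlap. After exercise vehicle libraries had 454, 342, 482, 409.9 and 415 CPM and knockout-labelled ones 378, 326, 391, 319 and 419 CPM, which did. The Acacb call was lost in 11 of 20 fits that left out 1 library (adjusted p as high as 0.0701 when vehicle at rest replicate 5 was omitted). Mlycd, which breaks malonyl-CoA down, had 0.23 (SE 0.09, adjusted p = 0.107), and Acaca, the other carboxylase, -0.18 (SE 0.14).

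In the oxidation cycle the call was Acadm, the medium-chain acyl-CoA dehydrogenase (chr3:153922357-153944632, minus strand). It ran from 186 through a median of 286 to 414 CPM in vehicle and from 326 through 433 to 568 CPM in knockout-labelled libraries, with a log2 fold change of 0.60 (SE 0.15, edgeR adjusted p = 0.0144). Its relatives for very long (Acadvl, 0.15, SE 0.20), long (Acadl, 0.02, SE 0.29) and short chains (Acads, 0.02, SE 0.12) were not called. Hadha and Hadhb, both subunits of the trifunctional protein, had 0.35 (SE 0.16, adjusted p = 0.175) and 0.38 (SE 0.19, adjusted p = 0.221). Hadh (0.06, SE 0.16) was the least changed of that role and Hadhb the most. Among the auxiliary enzymes the values ran from 0.30 (Eci1, SE 0.17) to 0.06 (Ech1, SE 0.20) and -0.08 (Eci2, SE 0.09). Electron transfer ranged from Etfb at -0.77 (SE 0.37, adjusted p = 0.199), on fewer than 10 counts in 10 libraries, to Etfa at 0.36 (SE 0.21), with Etfdh, which hands the electrons to ubiquinone, at 0.45 (SE 0.17, adjusted p = 0.109). Of the thioesterases, which release fatty acids from CoA, Acot2 had 0.49 (SE 0.16, adjusted p = 0.0604) and Acot13 0.07 (SE 0.10). Of the uptake genes Fabp3 had 0.61 (SE 0.41, adjusted p = 0.400) and the transporter Slc27a4 0.06 (SE 0.11).

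Of the nuclear receptors Ppard, which encodes PPAR-delta (chr17:28232700-28301474, plus strand), fell by 0.27 (SE 0.08, edgeR adjusted p = 0.0219). It stood at 29.9, 33.0, 29.7, 30.8 and 35.1 CPM in vehicle at rest, while knockout-labelled libraries had 28.2, 25.3, 24.6, 25.2 and 26.6 CPM, without overlap. After exercise the vehicle values were 40.7, 31.3, 35.6, 44.5 and 31.3 CPM and the knockout-labelled values 32.2, 27.5, 24.0, 33.6 and 35.6 CPM, with overlap. The Ppard call was lost without the 5 libraries poorest in slow fibre RNA (adjusted p = 0.0889). Ppara had 0.26 (SE 0.49, adjusted p = 0.797), and its level ranged from 3.32 to 41.3 CPM with the slow fibre score.

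**Figure D3:**
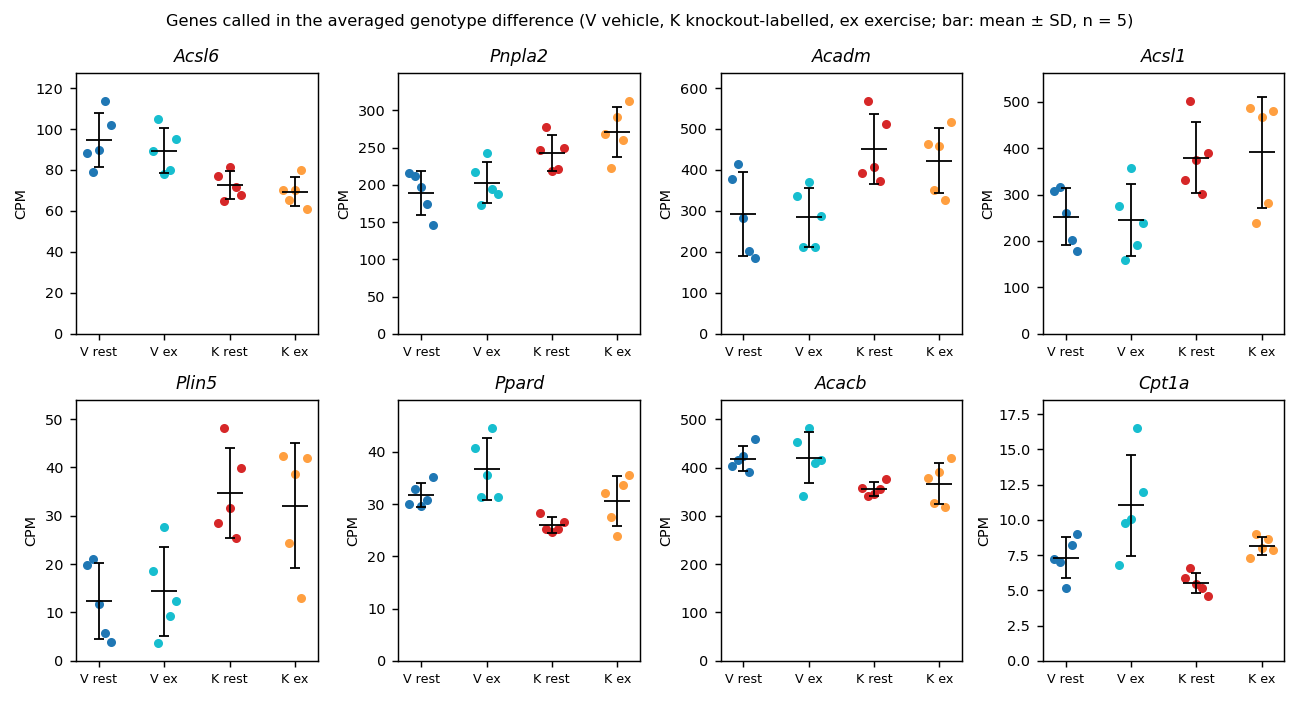
CPM of the 8 genes called in the averaged genotype difference, 1 point for each library, with the mean and SD of each group (n = 5). For Plin5, Pnpla2, Ppard and Acacb the 2 groups at rest do not overlap.

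At rest alone 1 of 45 genes was called, Acsl6 (log2 fold change -0.38, SE 0.11, edgeR adjusted p = 0.0396), against 3.86% of all genes tested. Pnpla2 (0.36, adjusted p = 0.0966) and Plin5 (1.47, SE 0.49, adjusted p = 0.131) came next by p and were not called. The ranges of the 2 groups were apart for 4 genes, Pnpla2, Plin5, Acacb and Ppard, 8.89% of the 45, against 5.8% of all genes tested. After exercise 2 genes were called, Pnpla2 (0.42, SE 0.12, edgeR adjusted p = 0.0325) and Acsl6 (-0.37, SE 0.11, adjusted p = 0.0368), against 6.42% of all genes, and Acsl1 came next (0.68, SE 0.24, adjusted p = 0.106). Ranges were apart for 1 gene, Crat, against 6.29% of all genes. Each of these 3 calls within 1 state was lost in 7 of 10 fits that left out 1 library. The highest adjusted p was 0.144 for Acsl6 at rest (without vehicle at rest replicate 4), 0.109 for Acsl6 after exercise (without vehicle after exercise replicate 2) and 0.0910 for Pnpla2 (without knockout-labelled after exercise replicate 5). Neither gene was called after exercise when the 5 libraries poorest in slow fibre RNA were left out. That fit lacked replicates 2 and 4 of both exercised groups, and the share of all genes called fell from 6.42% to 2.21%.

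With the slow fibre score as a covariate, the averaged genotype difference was called for 18 of 45 genes (40.0%), 13 higher and 5 lower, against 16.1% of all genes. Acsl1 then had 0.60 with an SE of 0.07 in place of 0.17 (edgeR adjusted p = 5.76e-07), Plin5 had 1.36 (SE 0.18, adjusted p = 4.81e-05) and Acadm 0.59 (SE 0.09, adjusted p = 2.74e-05). The fold changes of these 3 stayed close to those above, and their errors were smaller. Newly called as higher were the subunits Hadha (0.32) and Hadhb (0.35), Etfdh (0.42) and Etfa (0.29) of electron transfer, Eci1 (0.26), Acot2 (0.48), Mlycd (0.20), the transporter Slc27a1 (0.36) and Fabp3 (0.61), with edgeR adjusted p-values from 0.000914 to 0.0469. Etfb (-0.87, adjusted p = 0.0475) joined Acsl6, Acacb, Ppard and Cpt1a as lower. Within 1 state the covariate gave 6 calls at rest (Plin5, Acadm, Acsl1 and Pnpla2 higher, Acsl6 and Acacb lower, against 6.35% of all genes). After exercise it gave 10, of which Acsl6 was lower and Acsl1, Pnpla2, Acadm, Plin5, Etfdh, Hadha, Slc27a1, Acot2 and Hadhb were higher, against 10.4% of all genes. When the 5 poorest libraries were left out in place of the covariate, a choice made after the data were seen, 8 genes were called in the averaged difference, 6 higher and 2 lower: Acacb, Acadm, Acot2, Acsl1, Acsl6, Mlycd, Plin5 and Pnpla2, against 7.33% of all genes tested.

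**Figure D4:**
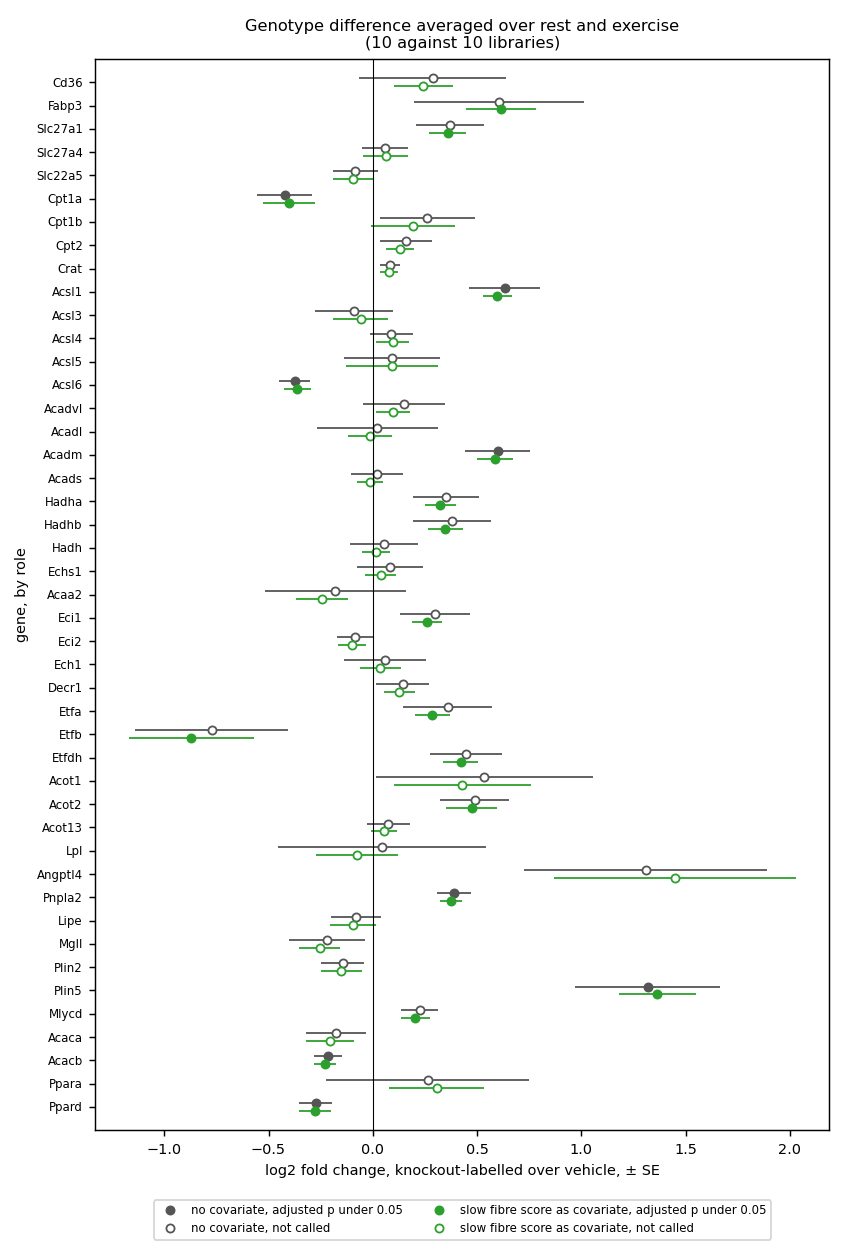
Averaged genotype difference of each of the 45 genes as log2 fold change (knockout-labelled over vehicle) ± SE, without a covariate (grey) and with the slow fibre score as a covariate (green), with filled points for an adjusted p under 0.05. Points of a gene nearly coincide, while the green error bars are shorter for most genes, and filled points number 8 in grey and 18 in green.

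**Figure D5:**
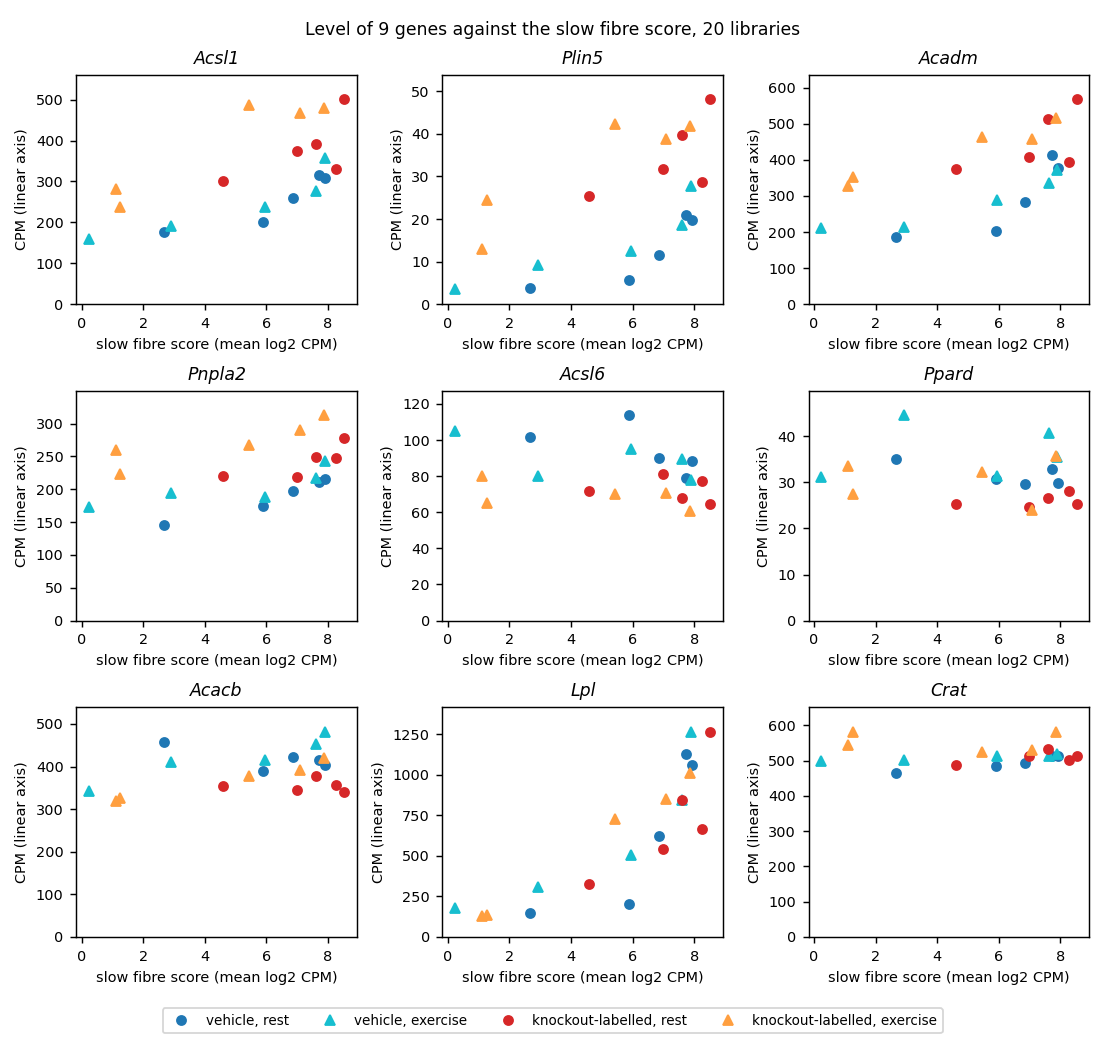
CPM of 9 genes (linear axis) against the slow fibre score of the library, 1 point for each of 20 libraries in 4 groups. At a like score the knockout-labelled points of Acsl1, Plin5, Acadm and Pnpla2 mostly lie above the vehicle points, Lpl is higher at higher scores, and Crat is flat.

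The windows upstream of the start sites were read for motifs, because BMAL1 with CLOCK binds the E-box CACGTG, and PPARs and related nuclear receptors bind the core motif AGGTCA. RefSeq windows of 250 bases before to 50 after each start (GRCm38.p6) were matched for 38 of the 45 genes, all 8 called ones included, and both strands were searched. CACGTG was in the windows of 4 of the 38 genes, Lipe, Mgll, Plin2 and Slc27a1, against 8.09% of all genes with a window, and in 0 of the 8 called genes. AGGTCA was in those of 9 of 38, against 18.1% of all genes, and in 5 of the 8 called genes: Acacb, Acadm, Acsl6, Cpt1a and Plin5. The spaced repeat AGGTCANAGGTCA was in none of the 38 (0 genes). A match describes letters in a window and shows no binding. The 250 bases before the start are given for 4 called genes with AGGTCA and for Slc27a1, which has the E-box and was called with the covariate. Capitals mark the matches, read 5′ to 3′ on the strand of the gene, where TGACCT is AGGTCA on the other strand.
Acadm, chr3:153944644-153944893, minus strand: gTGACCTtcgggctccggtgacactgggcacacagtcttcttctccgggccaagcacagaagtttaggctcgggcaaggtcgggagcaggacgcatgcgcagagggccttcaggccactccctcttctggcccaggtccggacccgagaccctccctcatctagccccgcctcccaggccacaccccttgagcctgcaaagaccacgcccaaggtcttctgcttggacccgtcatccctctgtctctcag
Plin5, chr17:56117549-56117798, minus strand: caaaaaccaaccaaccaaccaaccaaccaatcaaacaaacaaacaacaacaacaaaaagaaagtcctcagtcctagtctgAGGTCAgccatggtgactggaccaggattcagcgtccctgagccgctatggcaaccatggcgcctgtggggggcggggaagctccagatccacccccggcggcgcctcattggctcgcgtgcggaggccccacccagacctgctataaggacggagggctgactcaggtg
Acsl6, chr11:54303574-54303823, plus strand: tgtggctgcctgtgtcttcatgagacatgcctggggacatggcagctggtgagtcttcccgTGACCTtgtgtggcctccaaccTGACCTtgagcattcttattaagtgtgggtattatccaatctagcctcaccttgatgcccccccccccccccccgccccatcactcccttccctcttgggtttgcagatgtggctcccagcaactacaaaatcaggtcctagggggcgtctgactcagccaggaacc
Cpt1a, chr19:3323051-3323300, plus strand: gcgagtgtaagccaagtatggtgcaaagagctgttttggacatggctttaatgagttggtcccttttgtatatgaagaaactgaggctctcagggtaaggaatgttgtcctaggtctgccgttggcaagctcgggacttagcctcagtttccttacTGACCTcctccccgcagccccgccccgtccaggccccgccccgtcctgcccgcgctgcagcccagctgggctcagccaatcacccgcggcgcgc
Slc27a1, chr8:71570344-71570593, plus strand: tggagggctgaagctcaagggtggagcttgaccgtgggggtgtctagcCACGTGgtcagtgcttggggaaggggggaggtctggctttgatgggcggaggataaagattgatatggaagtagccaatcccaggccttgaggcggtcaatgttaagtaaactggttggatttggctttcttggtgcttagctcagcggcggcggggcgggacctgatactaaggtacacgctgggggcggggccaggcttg
AGGTCA lies 249 bases before the start in Acadm, 170 in Plin5, 189 and 167 in Acsl6 and 94 in Cpt1a, and the E-box lies 202 bases before the start in Slc27a1. Plin5, Acsl6 and Slc27a1 have other windows in RefSeq as well. The other window of Plin5 also holds AGGTCA. Those of Acsl6 hold no AGGTCA, and those of Slc27a1 hold no E-box. The motif was present both in genes that rose (Plin5, Acadm) and in genes that fell (Acsl6, Cpt1a).

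The second question was what 30 min of running does to these genes 1 h later. Averaged over both treatments 1 of 45 genes was called, Cpt1a (log2 fold change 0.58, SE 0.13, edgeR adjusted p = 0.0396), against 0.634% of all genes. Cpt1a stood at 7.19, 6.99, 5.15, 8.24 and 8.99 CPM in vehicle at rest and at 6.77, 9.79, 10.02, 16.5 and 12 CPM in vehicle after exercise. It stood at 5.84, 6.55, 5.42, 5.18 and 4.58 CPM in resting knockout-labelled muscle and at 7.29, 8.96, 7.99, 8.64 and 7.88 CPM after exercise. In knockout-labelled muscle every exercised library was above every resting one, and in vehicle the lowest exercised library lay within the resting range. Ppard (0.22, SE 0.08, adjusted p = 0.291) and Angptl4 (1.04, SE 0.58, adjusted p = 0.729) came next by p and were not called. The Cpt1a call was lost in 16 of 20 fits that left out 1 library (up to 0.0913, without knockout-labelled at rest replicate 3) and without the 5 libraries poorest in slow fibre RNA (0.129).

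In vehicle alone edgeR called 0 of the 45 genes, against 0.804% of all genes, and DESeq2 and limma-voom also called 0. At an unadjusted p under 0.05 there was 1 of the 45, against 1209 of all genes (8.92%). Cpt1a had 0.59 there (SE 0.18, edgeR adjusted p = 0.186), Ppard 0.21 (SE 0.11, adjusted p = 0.607) and Angptl4 1.40 (SE 0.89, adjusted p = 0.733). In knockout-labelled muscle edgeR called 0 of the 45, and 0% of all genes, with 2 of the 45 and 639 of all genes at an unadjusted p under 0.05, and DESeq2 and limma-voom called 0. Cpt1a had 0.56 (SE 0.19), Ppard 0.24 (SE 0.11) and Crat 0.12 (SE 0.07), each with an adjusted p of 1.00. Ranges were apart for 1 of the 45, Cpt1a, against 0.848% of all genes. The median log2 fold change of the 45 was 0.02 in vehicle, -0.06 in knockout-labelled muscle and -0.00 averaged, against 0.00, 0.00 and -0.00 over all genes.

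With the slow fibre score as a covariate the exercise values shifted upward. The median of the 45 was then 0.15 in vehicle, 0.21 in knockout-labelled muscle and 0.17 averaged, against -0.01 over all genes in each, and 41, 43 and 43 of the 45 values were positive. The mean score was 1.29 lower after exercise than at rest in vehicle and 2.65 lower in knockout-labelled muscle. Single genes seldom passed: Pnpla2 was called in the averaged response (0.25, SE 0.06, edgeR adjusted p = 0.0191, against 1.88% of all genes) and Cpt1a was not (0.49, adjusted p = 0.0537). Within vehicle (against 1.84% of all genes) and within knockout-labelled muscle (against 0.0369%) edgeR with the covariate called 0 of the 45, with 6 and 11 at an unadjusted p under 0.05. The share of all genes at that unadjusted p was not taken with the covariate.

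Whether the response to exercise differs with the treatment was tested by the interaction. EdgeR called 0 of the 45, and 0% of all genes, with 0 of the 45 and 791 of all genes at an unadjusted p under 0.05, and DESeq2 and limma-voom called 0 of the 45. The smallest p-values were those of Lipe (difference of log2 fold changes 0.25, SE 0.24, edgeR adjusted p = 0.964), Acadvl (-0.31, SE 0.39, adjusted p = 0.978) and Eci2 (-0.14, SE 0.18, adjusted p = 0.978). For Cpt1a the values of both treatments given above, 0.59 and 0.56, lay within their errors of each other.

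Other genes of lipid handling were read from 8 lists outside the 45, with 84 genes tested. In the averaged genotype difference 11 were called (13.1%), 5 higher and 6 lower, against 11% of all genes, with a median log2 fold change of -0.01. The largest fall was in Ces1d, a carboxylesterase with triglyceride lipase activity whose family members can share reads. It stood at 37.7, 50.7, 25.3, 26.8 and 31.0 CPM in vehicle at rest, while resting knockout-labelled libraries had 9.20, 0.919, 1.99, 3.23 and 2.88 CPM. After exercise the values were 27.9, 12.7, 13.9, 27.5 and 20.7 CPM with vehicle against 1.74, 5.18, 2.30, 2.97 and 2.74 CPM. No knockout-labelled library reached a vehicle library, and the averaged log2 fold change was -3.02 (SE 0.30, edgeR adjusted p = 1.71e-06). Among droplet and lipase genes Pnpla3, a relative of Pnpla2, rose (1.08, adjusted p = 0.000372), as did Fitm2, which helps form droplets (0.29, adjusted p = 0.0370). In the PPAR and ERR network Pdk4, the kinase that shuts pyruvate dehydrogenase and favours fat as fuel, rose (0.80, adjusted p = 0.00381). Nrip1, a corepressor of oxidative genes, fell (-0.81, adjusted p = 0.000217), and so did Rxra, the partner receptor of the PPARs (-0.33, adjusted p = 0.0239).

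Of 7 AMPK subunits 1 was called, Prkag2, which fell (-0.64, adjusted p = 0.000140). Of 11 peroxisomal genes Crot, the octanoyl transferase, rose (0.42, adjusted p = 0.0452) and Pex11a, of peroxisome division, fell (-0.39, adjusted p = 0.0469). Of 13 genes of fatty acid synthesis Thrsp fell (-0.53, adjusted p = 0.0309), and of 15 other mitochondrial acyl-CoA enzymes Acot9 rose (0.46, adjusted p = 0.000859). None of 10 other uptake genes and of 4 ketone body genes was called by edgeR (0 genes, with 3 and 1 at an unadjusted p under 0.05, against 24.2% of all genes). At rest 4 of the 84 were called by edgeR (4.76%, against 3.86% of all genes), Ces1d and Prkag2 lower and Pnpla3 and Pdk4 higher. After exercise 5 were called (5.95%, against 6.42% of all genes), Ces1d, Nrip1 and Prkag2 lower and Pnpla3 and Acot9 higher. With exercise in vehicle 1 of the 84 was called (1.19%, against 0.804% of all genes), Plin4, a droplet coat protein, which stood at 277, 258, 297, 298 and 300.2 CPM at rest and at 381, 455, 407, 438 and 356 CPM after exercise (log2 fold change 0.51, SE 0.12, edgeR adjusted p = 0.0445). The 2 groups did not overlap. Averaged over both treatments Plin4 (0.37, edgeR adjusted p = 0.0396) and Pdk4 (0.76, adjusted p = 0.0480) rose, 2.38% of the 84 against 0.634% of all genes. None of the 84 was called with exercise in knockout-labelled muscle or in the interaction (0 genes). At an unadjusted p under 0.05 there were 2 and 1 of the 84, against 4.71% and 5.83% of all genes.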

How the data were processed

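Counts per gene symbol were used as deposited by the authors, whole numbers in 1 table whose 20 columns were matched to samples by their description labels. Per the labels' protocols, Trizol and a Qiagen kit were used for the RNA and an Illumina kit for the libraries. The submitters' processing notes name Partek, STAR 2.7.8a and DESeq2, and the builds mm10 and GRCm39, without saying what each did. The counting program, the annotation and the strand setting are not given in the sources used here.

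From the counts, edgeR 4.0.16 in R 4.3.3 filtered genes with filterByExpr (minimum 10 counts), which left 13560 of 53311 rows and 99.8% of all counts, and libraries were scaled by TMM. A robust quasi-likelihood model with 1 mean per group was fitted to all 20 samples, and 7 contrasts were tested. P-values were adjusted by Benjamini and Hochberg's method across all 13560 genes and called under 0.05, and SEs come from the F statistics. A prior count of 2 entered log2 CPM. Single values were compared by exact permutation over 252 relabellings, and correlations used 100000 permutations. Within a group no library duplicated another: even the closest of each group had a chi-square of 3.80 to 11.2 per degree of freedom. Libraries of different groups were not compared in this way.

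The genes, the other lists, the markers and the covariate were chosen with earlier results of these data known. Named were all called genes, the next by p up to 3 where fewer were called, the most and least changed of each role, and called genes of the other lists up to 4 a list. The fit was tested on simulated data with known genotype changes. A log2 change of 0.5 was called for 25.3% of changed genes at rest, 17.2% after exercise and 56.6% averaged. A log2 change of 1 was called for 72%, 72% and 87%. Of the calls 2.02%, 2.20% and 3.38% were false. In the simulated data a modest difference within 1 state was thus often missed, and the same may hold for the samples. Most of the fatty acid genes moved with the slow fibre score. Whether the simulated rates of recovered and false calls apply to such genes was not tested. Alternatives covered scaling, DESeq2 1.42.0, limma-voom (limma 3.58.1), filters, the samples fitted, covariates, the replicate block and each library left out.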

Additional observations from a re-analysis of the deposited data

Results flagged for a closer look

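In 180 combinations of gene and group of 5 libraries, 3 had a library far from its group, fewer than the about 1 in 20 that chance gives. Etfb was at 0.555 CPM in vehicle at rest replicate 5 and at 1.16 to 1.52 CPM in the other libraries of the group. Lipe, hormone-sensitive lipase, was at 13.99 CPM in the same library and at 21.1 to 24.3 CPM in the others. Acot2, a mitochondrial thioesterase, was at 10.7 CPM in knockout-labelled after exercise replicate 4 and at 22.8 to 29.2 CPM in the others. Both libraries are among the 5 poorest in slow fibre RNA, and the part of that in these values was not tested.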

How the results depend on the processing

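The averaged genotype difference called 8 genes, and 18 with the slow fibre score, with Myh2 or with both as covariates, while the share of all genes called went from 11% to 16.1%, 16.3% and 15.9%. The count at rest, 1 without changes, was 2 with limma-voom, 6 with the slow fibre score and 7 with Myh2 or with both, against 3.86% of all genes and 6.35%, 6.47% and 6.51% with these covariates. After exercise it was 2, and 10, 9 and 8 with these covariates in the same order (6.42% of all genes, and 10.4%, 10.8% and 9.76%). It was 1 with scaling by library size only (6.23% of all genes) and 0 when only both groups of the contrast were fitted (4.39%). Without the 5 libraries poorest in slow fibre RNA it was 0 as well (2.21%). The averaged exercise response called 1 gene, and 0 with upper quartile scaling, with library size only, with limma-voom, with both covariates and without those 5 libraries. The Myh2 covariates and the omission of libraries were chosen after seeing the data, and the cause of these shifts was not tested. Leaving out 1 library gave 6 to 9 calls for the averaged genotype difference, 0 to 1 at rest, 0 to 4 after exercise, 0 to 1 for exercise in vehicle (Cpt1a, without vehicle after exercise replicate 1) and 0 to 1 for the averaged exercise response. The share of all genes called in each of these fits is not given here.

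Plin5, Acsl6 and Pnpla2 kept their averaged genotype call in all 20 such fits and the 16 other settings run for that contrast. Acsl1 (adjusted p = 0.0585) and Acadm (0.0510) lost theirs without a filter on low counts, Acacb with library size only (0.139), and Cpt1a with limma-voom and with the fat cell score as a covariate. No called value of the 45 genes changed its sign. Among the 5180 values of a gene in a comparison under those other settings, 430 values called in neither fit changed sign.

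The same replicate numbers occur in each group. Of 30 same-numbered pairs of libraries 15 had deviations correlated above 0.1 (r from -0.45 to 0.44), and 4 of 20 libraries were closest to their own number. The median r was 0.09 for same-numbered and -0.02 for differently numbered pairs. The numbers were therefore not taken to pair the samples, though this check cannot exclude a weak pairing. With the replicate block the counts were 0 at rest, 1 after exercise and 9 averaged, against 3.82%, 6.08% and 10.9% of all genes. Levels of 0.108 to 1.74 CPM (Etfb) and 0 to 2.07 CPM (Acot1) limit what can be said of these 2 genes.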
